A study of Drosophila melanogaster with 12 samples.

Results

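The regions described here are those bound by ORC2 in the larval fat body of Drosophila melanogaster at the late-3rd instar (wandering) and at the 2nd instar. They were taken as every region in the deposited ORC2 peak lists of these stages, 706 at late-3rd instar and 4239 at 2nd instar, so 4945 of the 6998 regions listed over 3 stages. A second pair of lists holds high-confidence ORC2 peaks, 60 at late-3rd instar and 797 at 2nd instar. A 2nd instar region was called kept when a late-3rd instar region lay within 1 kb, and lost when none did. Lost therefore means absent from the late-3rd instar list, and in a whole tissue ORC2 bound in fewer cells cannot be told apart from less ORC2 per cell.

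ORC2 is a subunit of the origin recognition complex, which binds DNA and loads the replicative helicase, a step called licensing, before each S phase. Fat body cells are polyploid: they repeat S phase without dividing, in the endocycle, and store the nutrients that the animal uses during metamorphosis. In Drosophila the complex has little sequence preference and often lies in open chromatin, such as the promoters of active genes.

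All animals were OregonR wild-type males raised at 25C, with 1 copy of the X. The late-3rd instar larvae were picked as wandering animals and the 2nd instar larvae 67 to 68 h after egg laying. A sample took 60 larvae at late-3rd instar and 120 at 2nd instar. Fat body was dissected by hand from fixed larvae and the testes were removed. Each stage had 2 biological replicates, each an ORC2 ChIP library with an input library. The lists hold binding sites and no expression, so the tissue could not be checked by its marker genes. They give no read totals, so the depth behind each list is unknown, and the number of larvae runs with the stage. The part of depth and of the number of larvae in the values below was not tested.

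The late-3rd instar lists were far shorter than the 2nd instar lists. Late-3rd instar replicates 1 and 2 had 370 and 500 peaks, against 4277 and 3831 peaks in the 2nd instar replicates. The means were 435 ± 91.9 and 4054 ± 315 peaks (SD, n = 2 each), a ratio of 0.107. The groups did not overlap, but an exact two-sided permutation test of 2 against 2 cannot go below p = 0.333, which is the value it gave. This test, the only test run on the replicates, can therefore not pass 0.05, and values given below without it are descriptions of the lists.

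The late-3rd instar replicates also differed from each other in what they held. Of the regions named by late-3rd instar replicate 1, 27.7% were also named by replicate 2, and of those named by replicate 2, 19.4% were also named by replicate 1. The 2nd instar replicates shared 65.1% and 73.8% of their regions in the same comparison. Regions within 1 kb of an annotated gene end made up 27.7% of the regions of late-3rd instar replicate 1 and 57.5% of those of replicate 2, against 61.5% and 58.0% at 2nd instar. The means were 42.6 ± 21.1% and 59.7 ± 2.47% (SD, n = 2 each; exact two-sided permutation p = 0.333, the smallest possible), and the difference of -17.2 percentage points was -2.24 without late-3rd instar replicate 1 and -32.1 without replicate 2. At the stage between them, mid-3rd instar, the shares were 66.1% and 65.7%, so replicate 1 of the late-3rd instar was the lowest of the 6 libraries.

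The regions that a single late-3rd instar replicate named make the same contrast. The 238 regions of replicate 1 alone lay a median of 3112 bp from a gene end, and 54.2% of them were listed at 2nd instar. The 377 regions of replicate 2 alone lay a median of 310 bp from a gene end, and 87.8% of them were listed at 2nd instar. The 91 regions of both replicates lay a median of 6153 bp from a gene end, and 91.2% of them were listed at 2nd instar. Of the 336 late-3rd instar regions within 1 kb of a gene end, 245 were named by replicate 2 alone, and the main shares below are given for each late-3rd instar replicate.

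**Figure D1:**
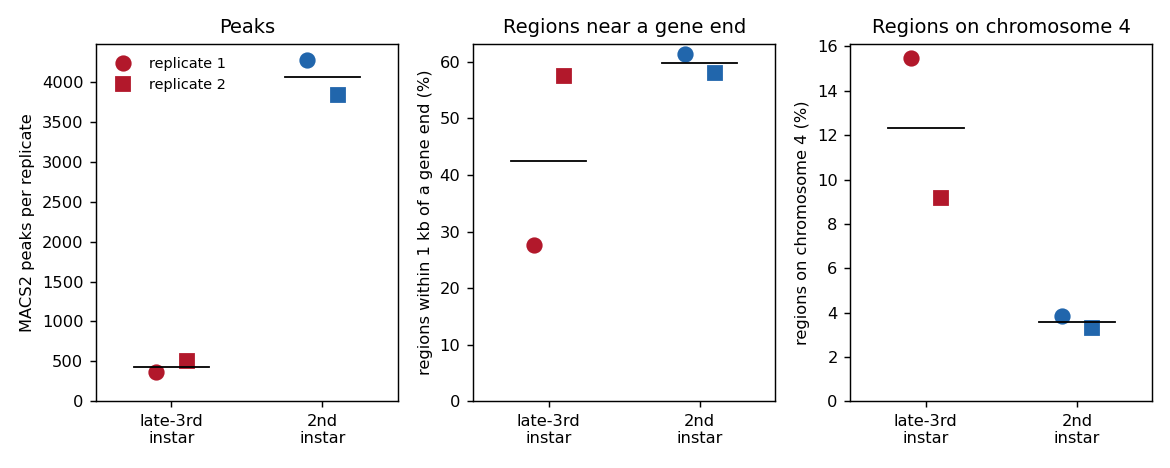
Peaks per replicate (left), share of regions within 1 kb of a gene end (middle, %) and share of regions on chromosome 4 (right, %) in late-3rd instar (red) and 2nd instar (blue) ORC2 ChIP replicates, with replicate 1 as circles, replicate 2 as squares and the mean of 2 replicates as a line. The late-3rd instar replicates have 370 and 500 peaks against 4277 and 3831, and they part from each other in the share near gene ends, at 27.7% and 57.5%.

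The first question was how many 2nd instar regions were still listed at the wandering stage. Of the 4239 regions, 542 were kept, which is 12.8% (95% Wilson interval 11.8 to 13.8%, for counting error only), and 3697 were lost. Late-3rd instar replicate 1 by itself kept 5.19% and replicate 2 by itself kept 9.86%. The high-confidence 2nd instar peaks were kept more often, 246 of 797 or 30.9%, with 7.78% when only late-3rd instar replicate 1 was used and 28.5% when only replicate 2 was used. A high-confidence peak was present at both stages at 29 of the 797, or 3.64%. Of the 2241 regions that both 2nd instar replicates named, 75 or 3.35% met a late-3rd instar region that both replicates named.

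In the other direction, late-3rd instar regions lay mostly where ORC2 had been listed before. Of the 706 late-3rd instar regions, 543 or 76.9% were also listed at 2nd instar, and 163 were not. The share was 64.4% for the regions of late-3rd instar replicate 1 and 88.5% for those of replicate 2. Of the 60 high-confidence peaks of the late-3rd instar, 52 met a 2nd instar region and 33 met a high-confidence 2nd instar peak.

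Kept regions were more often supported by both 2nd instar replicates than lost regions, at 79.9% and 48.9%. The share was 58.1% for regions kept by late-3rd instar replicate 1 only and 87.0% for those kept by replicate 2 only. Kept regions were listed at mid-3rd instar in 74.7% of cases and lost regions in 31.5%, but those kept by late-3rd instar replicate 1 only were listed there in 36.3% and those kept by replicate 2 only in 85.1%. The kept share was 31.0% for 2nd instar regions merged from 5 or more peaks and 5.15% for those of a single peak. A wider region has more room for a late-3rd instar region within 1 kb. The median width was 675 bp for kept and 606 bp for lost regions, and the part of width was not tested. Late-3rd instar replicate 1 kept 15.8% of the regions of 5 or more peaks and 3.13% of those of a single peak, and replicate 2 kept 24.0% and 2.65%.

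The same order was seen in the IDR, the irreproducible discovery rate, a score of the authors' comparison of replicates. A low IDR marks a peak that ranked both high and alike in the replicates. The 797 high-confidence 2nd instar peaks were divided by IDR into 4 classes of 199 or 200. In the class of lowest IDR 59.0% were kept, and the next classes had 33.7%, 19.6% and 11.1%. Late-3rd instar replicate 1 kept 16.5%, 9.05%, 3.02% and 2.51% in the 4 classes. Late-3rd instar replicate 2 kept 57.5%, 29.6%, 17.6% and 9.05%. Without the ribosomal DNA end of the X, described below, the class of lowest IDR had 55.2%, and the share kept by late-3rd instar replicate 1 in it was 8.84%, against 9.05% in the next. The fall from the lowest class to the next in replicate 1 was therefore found only with that end of the X included.

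**Figure D2:**
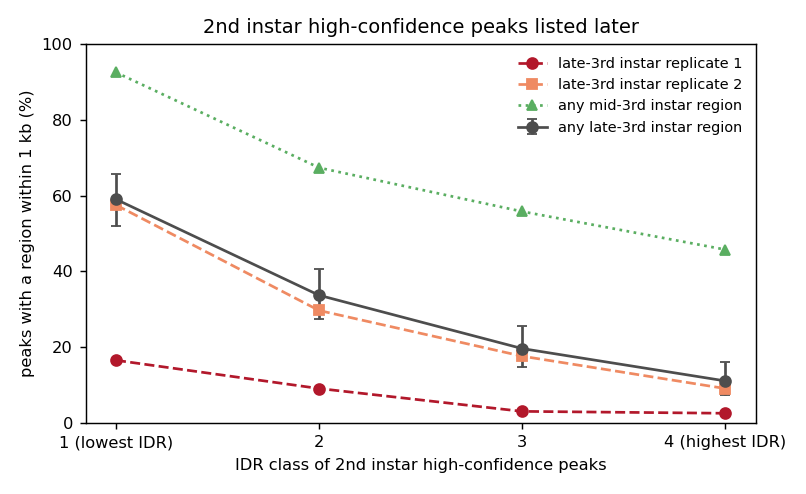
Share (%) of 2nd instar high-confidence ORC2 peaks with a region within 1 kb, in 4 classes of IDR from lowest to highest, for any late-3rd instar region (grey, with 95% Wilson intervals), each late-3rd instar replicate (red circles, orange squares) and any mid-3rd instar region (green). The share kept at late-3rd instar is 59.0% in the lowest class and 11.1% in the highest, and replicate 1 lies below replicate 2 in each class.

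Most merged regions that were lost were already unlisted at mid-3rd instar, while most lost high-confidence peaks were still listed there. Of the 4239 regions, 2533 were listed at neither later stage, 1164 were listed at mid-3rd but not at late-3rd instar, 405 were listed at all 3 stages, and 137 were listed at late-3rd but not at mid-3rd instar. For the 797 high-confidence peaks the counts in the same order were 257, 294, 227 and 19.

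Chromosome 4, the small and mostly heterochromatic dot chromosome, kept a larger share of its regions than the arms of chromosomes 2 and 3. Of its 157 regions, 61 were kept, or 38.9% (95% Wilson interval 31.6 to 46.7%), against 11.5% for arms 2L, 2R, 3L and 3R together. The shares of the replicates were alike here, since late-3rd instar replicate 1 kept 24.8% of the chromosome 4 regions and replicate 2 kept 25.5%. The regions themselves mostly differed. Replicate 1 kept 39 of the 61 and replicate 2 kept 40, so most were kept by 1 replicate only. On the 4 major autosomal arms replicates 1 and 2 kept 3.86% and 8.93%. The Y kept 5 of 16 regions, or 31.3% (95% Wilson interval 14.2 to 55.6%), 31.3% by replicate 1 and 25.0% by replicate 2, so it and chromosome 4 could not be ordered. Of the 32 high-confidence 2nd instar peaks of chromosome 4, 24 were kept by any late-3rd instar region, or 75.0%, against 27.2% on the 4 arms. A late-3rd instar high-confidence peak was met by only 1 of the 32, and by 9 of the 695 on the 4 arms. Chromosome 4 held 15.5% and 9.19% of the regions in late-3rd instar replicates 1 and 2, against 3.83% and 3.29% in the 2nd instar replicates. The means were 12.3 ± 4.46% and 3.56 ± 0.381% (SD, n = 2 each). The groups did not overlap (exact two-sided permutation p = 0.333, the smallest possible, or 0.389 after Benjamini-Hochberg adjustment over 7 chromosomes). This was not particular to chromosome 4. The shares of 2R, 3L, 3R, X and Y did not overlap either, with the same p, and only those of 2L did. The ratio of late-3rd to 2nd instar means was 3.46 for chromosome 4 and 4.55 for the Y. The chromosome 4 difference of 8.78 percentage points was 5.62 without late-3rd instar replicate 1.

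Over all chromosomes the kept share was also higher where genes are sparse. Of 2nd instar regions with up to 10 genes within 100 kb, 26.1% were kept, and the share was 19.2% with 11 to 20 genes, 10.2% with 21 to 40 and 11.6% with over 40. Late-3rd instar replicate 1 kept 12.5%, 10.3%, 3.30% and 4.64% in these classes, and replicate 2 kept 23.6%, 15.2%, 7.85% and 7.90%.

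**Figure D3:**
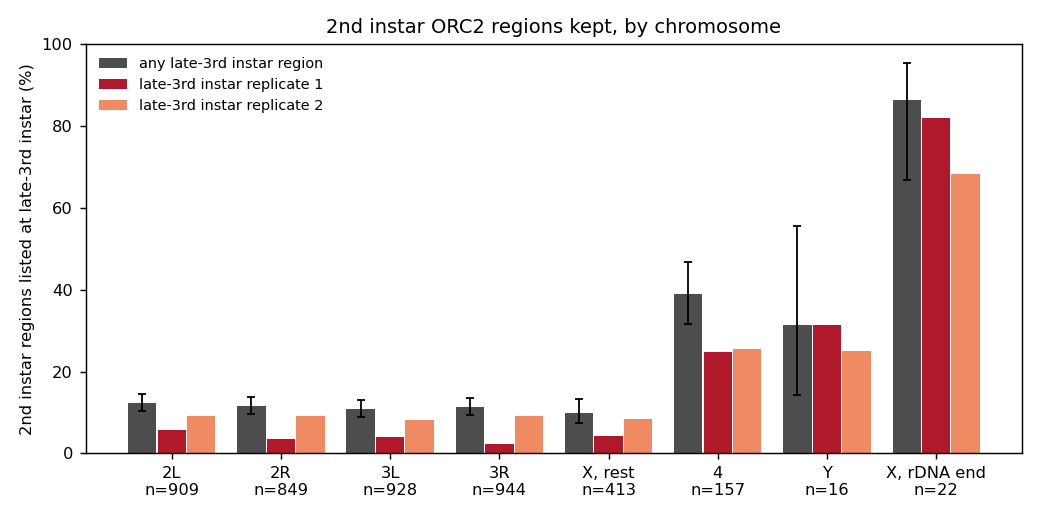
Share (%) of 2nd instar ORC2 regions with a late-3rd instar region within 1 kb on each chromosome, for any late-3rd instar region (grey, with 95% Wilson intervals) and for late-3rd instar replicates 1 (red) and 2 (orange), with the X divided at its ribosomal DNA. Chromosome 4 keeps 38.9% and the ribosomal DNA end of the X 86.4%, while the rest of the X and the arms of chromosomes 2 and 3 lie between 9.93% and 12.2%.

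The ribosomal DNA end of the X, where the assembly holds copies of the rRNA genes and their pseudogenes, was the most persistent place of all. It had 18 and 15 regions in the late-3rd instar replicates, against 19 and 21 in the 2nd instar replicates (exact two-sided permutation p = 0.333, the smallest possible). All 14 of the listed rRNA genes and pseudogenes with a 2nd instar region were kept. The list of 36 does not hold every rRNA gene. Of 111 genes annotated as rRNA, 21 had a late-3rd instar region and 1 had a 2nd instar region, and that 1 was kept. The others of the 21 were therefore late-only. Of the 22 merged 2nd instar regions of the ribosomal DNA end, 19 or 86.4% were kept. It held 17 of the 60 high-confidence late-3rd instar peaks, with IDR between 0.0158 and 0.0737, and 19 of the 797 high-confidence 2nd instar peaks, with IDR between 2.4e-06 and 2.06e-05. High-confidence peaks met within 1 kb at 15 of those 19. Reads from near-identical rRNA copies cannot be placed with certainty, so the count of separate sites there is uncertain.

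The replication-dependent histone genes lie in another tandem array, on 2L, and as over the whole list most regions were lost. Between positions 21416953 and 21541681 of 2L, late-3rd instar replicates named 3 and 6 regions, against 28 and 26 in the 2nd instar replicates. High-confidence peaks numbered 1 at late-3rd instar and 13 at 2nd instar. Merged regions numbered 30 at 2nd, 27 at mid-3rd and 8 at late-3rd instar. All 111 annotated histone genes of the list had a 2nd instar region and 20 had a late-3rd instar region, which is 18.02% (95% Wilson interval 11.98 to 26.20%). Over all annotated genes with a 2nd instar region the share was 13.4%, which lies in that interval. The 20 genes had 8 distinct late-3rd instar regions between them, so the interval counts genes that are not independent. The Stellate cluster of the X, near-identical copies of a testis-expressed gene, had a late-3rd instar region at X:14049551-14053867 with 4 peaks of replicate 1 and 1 of replicate 2, against 1 and 2 peaks in the 2nd instar replicates.

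The late-3rd instar regions of both replicates that held the most peaks included the Stellate region and the following 4. The region at X:23278032-23284057, over a pre-rRNA copy, had 5 and 3 peaks in late-3rd instar replicates 1 and 2, against 2 and 2 peaks in the 2nd instar replicates. The region at 2R:25258346-25261246, near the tip of the arm and with no annotated gene within 1 kb, had 2 and 4 peaks, against 3 and 3. The region at 3L:27069268-27073278, also without a gene, had 3 and 3 peaks, against 1 and 2. On chromosome 4 the region at 4:466348-468568, within 1 kb of Taf3, a subunit of the general transcription factor TFIID, and of Asator, a kinase, had 2 and 2 peaks, against 2 and 3. These regions were chosen for their late-3rd instar counts, so a high count there is no finding.

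Outside the ribosomal DNA, 14 high-confidence 2nd instar peaks had a high-confidence late-3rd instar peak, and at each of them every replicate of both stages had at least 1 peak. High-confidence peaks are those common to both replicates of a stage, so this largely follows from how the 14 were chosen. The gene nAChRalpha3, for a subunit of the nicotinic acetylcholine receptor, held a pair of them. At X:8293412-8294287 the IDR was 0.0882 at late-3rd instar and 1.98e-05 at 2nd instar, and at X:8295409-8296172 it was 0.0370 and 0.000523. On chromosome 4 the peak at 4:66020-70696 covered RpS3A, a protein of the small ribosomal subunit, and pan, the transcription factor of Wnt signalling. There late-3rd instar replicates 1 and 2 had 1 and 4 peaks, against 3 and 3 peaks in the 2nd instar replicates. The peak at 3L:16037073-16038096 lay at Diap1, the inhibitor of caspases that keeps cells from apoptosis, and the peak at 2R:16124202-16124618 at spin, a lysosomal transporter needed for autophagic lysosomes to recycle. The peak at 2L:14010960-14012695 lay at bgm, an acyl-CoA synthetase of very long fatty acids, and a glutamine tRNA gene. A pair of unnamed gene models, CG17684 (2R:1937709-1938339) and CG34353 (3R:27867649-27868256), each had a peak. A further 5 peaks had no annotated gene within 1 kb. These were at 3L:26704593-26705179, 3L:27068628-27073167 and 3L:27076040-27077516, all at the centromere-proximal end of the arm, at 2R:4100352-4100886 and at Y:883933-884400.

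Of the high-confidence 2nd instar peaks of lowest IDR that were listed at neither later stage, the first, at 3L:1188745-1189641 with an IDR of 3.45e-05, was at Trhn, a tryptophan hydroxylase, and CG13912. Others were at beta-PheRS, a subunit of phenylalanyl-tRNA synthetase, beside jar, myosin VI (3R:24252412-24252863), at TER94, the ATPase that extracts ubiquitinated proteins (2R:9988830-9989755), and at Vha55, a subunit of the vacuolar proton pump, beside the sorting nexin Snx3 (3R:12627550-12628050). The rest of the 10 were at beta-Man, a mannosidase, Egfr, the EGF receptor, sky, a Rab GTPase-activating protein, the kinesin Khc-73, the cation channel Trpm, and 3R:4962609-4963084, which has no gene within 1 kb. Each had 1 or 2 peaks in each 2nd instar replicate and none in either late-3rd instar replicate.

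Among the peaks of lowest IDR that were still listed at mid-3rd but not at late-3rd instar, RpS27A, the ribosomal protein made as a fusion to ubiquitin, had an IDR of 1.9e-05 (2L:10407951-10408567). Lk6, the kinase of the translation factor eIF4E, had 2.23e-05 (3R:11763972-11764829), and cic, the repressor relieved by EGF receptor signalling, had 2.47e-05 (3R:20260976-20262640). RpL10 with CkIIalpha, a catalytic kinase subunit, shn, a cofactor of Dpp signalling, mRpL13 with CG10602 and tup, T48 with ro, MED21 with the methyltransferase Set1, and CG17528 made up 6 more. The shn locus had 5 peaks in each 2nd instar replicate and none in either late-3rd instar replicate. The last, at X:23430664-23431582 in the ribosomal DNA end, had no late-3rd instar region but did have a high-confidence late-3rd instar peak within 1 kb, since the high-confidence and merged lists differ in places.

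Over genes, 853 of 17861 annotated genes (4.78%) had a late-3rd instar region within 1 kb of any part of the gene, against 5492 (30.7%) with a 2nd instar region. Of those 5492 genes, 738 or 13.4% also had a late-3rd instar region, 4.84% by late-3rd instar replicate 1 and 10.7% by replicate 2. The 738 were 86.5% of the late-3rd instar genes. Kept genes had a median length of 4078.5 bp and lost genes 2507 bp, and the kept share was 21.6% in the longest of 4 length classes of equal size, against 11.9%, 9.98% and 10.3% in the others from the shortest up. The gene lists below are set beside the 13.4% of all genes.

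None of the genes of the replication machinery that had ORC2 at 2nd instar had it at late-3rd instar. Of 23 licensing genes 6 had a 2nd instar region and 0 of the 6 were kept (95% Wilson interval up to 39.0%). These were dup, which encodes Cdt1, the helicase loader, with 5 and 3 peaks in the 2nd instar replicates, and Mcm5, Mcm7, Psf1, Psf2 and chif, the activator of the Cdc7 kinase. Of 20 replication fork genes 8 had a 2nd instar region and 0 of the 8 were kept (95% Wilson interval up to 32.4%). Among them were PCNA, the sliding clamp, PolA1 and Prim1, which make the primers, PolE1, the leading-strand polymerase, and SuUR, which represses replication of late heterochromatin. PolE1 had 1 and 3 peaks in the 2nd instar replicates. The other fork genes, including PCNA, PolA1, Prim1 and SuUR, each had 1 peak in 1 replicate only. Of all 2nd instar regions named by 1 replicate, 5.46% were kept. The intervals of both lists include the 13.4% of all genes.

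Of 13 cell cycle regulators with a 2nd instar region 1 was kept, or 7.69% (95% Wilson interval 1.37 to 33.3%, which includes the 13.4% of all genes). E2f1, the activator of S phase genes (3R:21620304-21660871), had 0 and 1 peaks in late-3rd instar replicates 1 and 2, against 3 and 2 in the 2nd instar replicates, and its late-3rd instar region is shared with the neighbouring gene InR. CycE, the cyclin that drives endocycle S phase, had 1 peak in each 2nd instar replicate and none at late-3rd instar. Cdk2, its kinase, dap, its inhibitor, E2f2, CycA, CycB, CycD, Cdk4 and Cdk1 were also lost.

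Ecdysone, the steroid that triggers wandering and metamorphosis, acts through a receptor and a cascade of early and late transcription factors. Of 18 ecdysone response genes with a 2nd instar region, 3 or 16.7% were kept. EcR, the receptor (2R:6087873-6169087), had 3 and 4 peaks in late-3rd instar replicates 1 and 2, against 20 and 17 in the 2nd instar replicates. Eip75B, an early nuclear receptor (3L:17950953-18064696), had 2 and 3, against 17 and 19. Eip74EF, an early ETS factor, had 0 and 1, against 4 and 2. These genes are long, 81215, 113744 and 60654 bp, and their ORC2 peaks were fewer in each late-3rd instar replicate than in either 2nd instar replicate. The nuclear receptors Hr3, Hr4, Hr39 and Hr78 had no late-3rd instar region. Hr39 had had 6 and 3 peaks in the 2nd instar replicates.

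The opposite was found at br, the early ecdysone gene that encodes the Broad zinc finger factors (X:1575132-1664869). It had 2 peaks in each late-3rd instar replicate and 0 in each 2nd instar replicate, in regions at X:1628219-1628819 and X:1634928-1635551, where Mur2B is also annotated. The first held a high-confidence peak with an IDR of 0.0486, and neither was listed at mid-3rd instar.

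Fat body genes were kept at 4 of 15, or 26.7%, nearly all through late-3rd instar replicate 2. The 95% Wilson interval, 10.9 to 52.0%, includes the 13.4% of all genes. Lsp1beta and Lsp1gamma, subunits of the larval serum storage protein, had 0 and 1 peaks each in late-3rd instar replicates 1 and 2. In the 2nd instar replicates Lsp1beta had 1 and 2 peaks and Lsp1gamma had 2 and 2. Fbp1, the receptor that takes storage protein back up, had 0 and 1 peaks, against 1 and 0. Lsp2 and Fbp2 had late-3rd but no 2nd instar regions, with 2 and 1 peaks in replicate 2, 0 in replicate 1 and 0 in both 2nd instar replicates. Both genes also had a mid-3rd instar region. The gene apolpp, which encodes the main lipoprotein of the blood and lies on chromosome 4 (4:1060969-1077273), had 2 and 6 peaks in late-3rd instar replicates 1 and 2, against 11 and 11, and 2 late-3rd instar high-confidence peaks. The lipid genes Mtp, Apoltp, Lsd-1 and Lsd-2 had no late-3rd instar region.

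Of 14 insulin and TOR signalling genes with a 2nd instar region, 6 or 42.9% were kept (95% Wilson interval 21.4 to 67.4%), 5 of them by late-3rd instar replicate 2 alone. InR, the insulin receptor (3R:21570248-21619321), had 0 and 1 peaks in the late-3rd instar replicates, against 16 and 10 in the 2nd instar replicates. The gene foxo, the transcription factor that insulin signalling holds out of the nucleus, had 0 and 1, against 10 and 10. Thor, the translation repressor 4E-BP, Pi3K92E, the kinase subunit, and REPTOR, a TOR-regulated transcription factor, were also kept. Rheb, the activator of TOR, had a mid-3rd and a late-3rd instar region but none at 2nd instar. The adaptor chico, with 5 and 6 peaks at 2nd instar, and Pi3K21B, Pdk1 and Akt had none at late-3rd instar. Of 13 autophagy genes 1 was kept, or 7.69% (95% Wilson interval 1.37 to 33.3%, which includes the 13.4% of all genes). This was Atg1, the kinase that starts autophagy, with 1 peak in each late-3rd instar replicate, in separate regions, against 4 and 5.

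**Figure D4:**
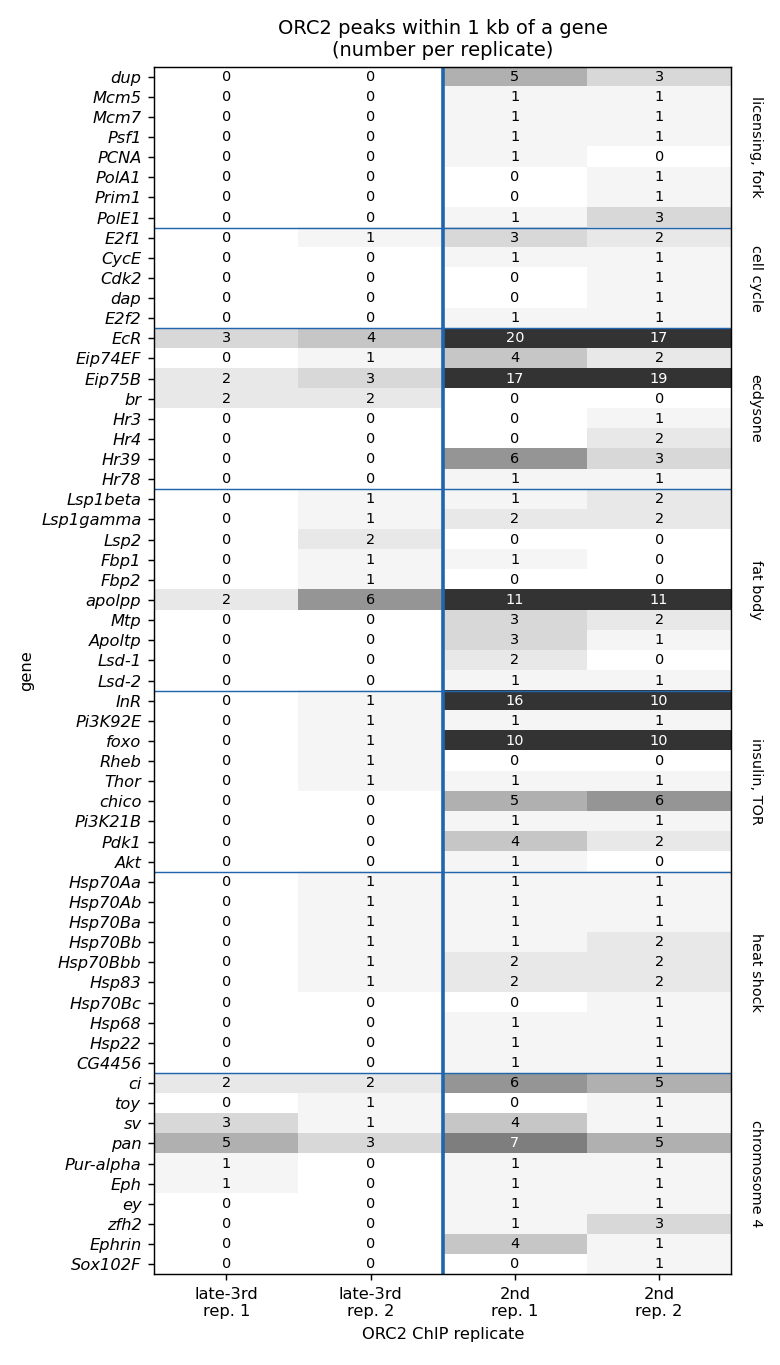
Number of ORC2 peaks in the regions within 1 kb of each gene in late-3rd instar replicates 1 and 2 (left columns) and 2nd instar replicates 1 and 2 (right columns), for the first genes of 8 lists, with darker cells for more peaks up to 10. InR has 0 and 1 peaks at late-3rd instar against 16 and 10 at 2nd instar, and br has 2 and 2 against 0 and 0.

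Heat shock genes had the highest kept share among the lists other than the chromosome 4 and ribosomal RNA genes. It was 8 of 13 or 61.5% (95% Wilson interval 35.5 to 82.3%), and all 8 by late-3rd instar replicate 2 alone. Some of these genes lie in clusters, and the 8 were kept in 7 distinct regions. Hsp70Aa, Hsp70Ab, Hsp70Ba, Hsp70Bb and Hsp70Bbb, near-identical copies of the inducible chaperone, had 0 and 1 peaks each in late-3rd instar replicates 1 and 2, against 1 or 2 in each 2nd instar replicate. Hsp70Bb and Hsp70Bbb share a region, and reads of the copies may be interchanged. Hsp83, the Hsp90 chaperone, Hsc70-4, a constitutive chaperone, and the nuclear RNA Hsromega were the other 3. Hsp23 and Hsp27, small chaperones, share a late-3rd instar region of replicate 2 and had no 2nd instar region. Of 17 snRNA genes of the spliceosome and related particles, 7 or 41.2% were kept, in 5 distinct regions and again by late-3rd instar replicate 2 alone. Late-3rd instar replicate 1 had no region at any of the 13 heat shock and 17 snRNA genes with a 2nd instar region.

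Of 49 ribosomal protein genes, 9 or 18.4% were kept, 8 of them by late-3rd instar replicate 2 alone, such as RpL5, RpL38 and RpL3. RpS3A on chromosome 4 was the ninth, with 1 and 3 peaks in late-3rd instar replicates 1 and 2, against 3 and 3. Of 168 nuclear tRNA genes, 22 or 13.1% were kept, 10 by late-3rd instar replicate 1 and 13 by replicate 2, in a list where clusters share regions. The immune genes kept 1 of 9, or 11.1% (Wilson interval 1.99 to 43.5%, which includes the 13.4% of all genes). This was cact, the inhibitor of the Toll pathway. The homeotic and Polycomb target genes kept 3 of 8, or 37.5% (Wilson interval 13.7 to 69.4%). Antp was kept by late-3rd instar replicate 1 only, and ap and toy, a chromosome 4 gene, by replicate 2 only. The genes of this list are long, with a median of 21324 bp. The 13.4% of all genes lies just below its interval, and the 21.6% of the longest class lies in it. Of the markers of other tissues, those of the salivary gland had no region at either stage, Mhc of muscle was lost, and of the testis markers vas was kept by late-3rd instar replicate 2 alone and bam was lost.

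The listed genes of chromosome 4 were kept at 23 of 32, or 71.9% (95% Wilson interval 54.6 to 84.4%), 15 with late-3rd instar replicate 1 and 17 with replicate 2. The gene pan had 5 and 3 peaks in late-3rd instar replicates 1 and 2, against 7 and 5. The transcription factor of hedgehog signalling, ci, had 2 and 2, against 6 and 5, and the Pax factor sv had 3 and 1, against 4 and 1. Of the 23, 8 were kept by late-3rd instar replicate 2 only and 6 by replicate 1 only. At many of these, such as toy, Pur-alpha, Eph, gw, unc-13 and Arl4, a single late-3rd instar peak in 1 replicate was the basis of the call. The lost genes included ey, the Pax factor of eye development, zfh2, Ephrin and Sox102F. With a median length of 11301 bp these genes are long, and the longest class of all genes had a kept share of 21.6%.

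**Figure D5:**
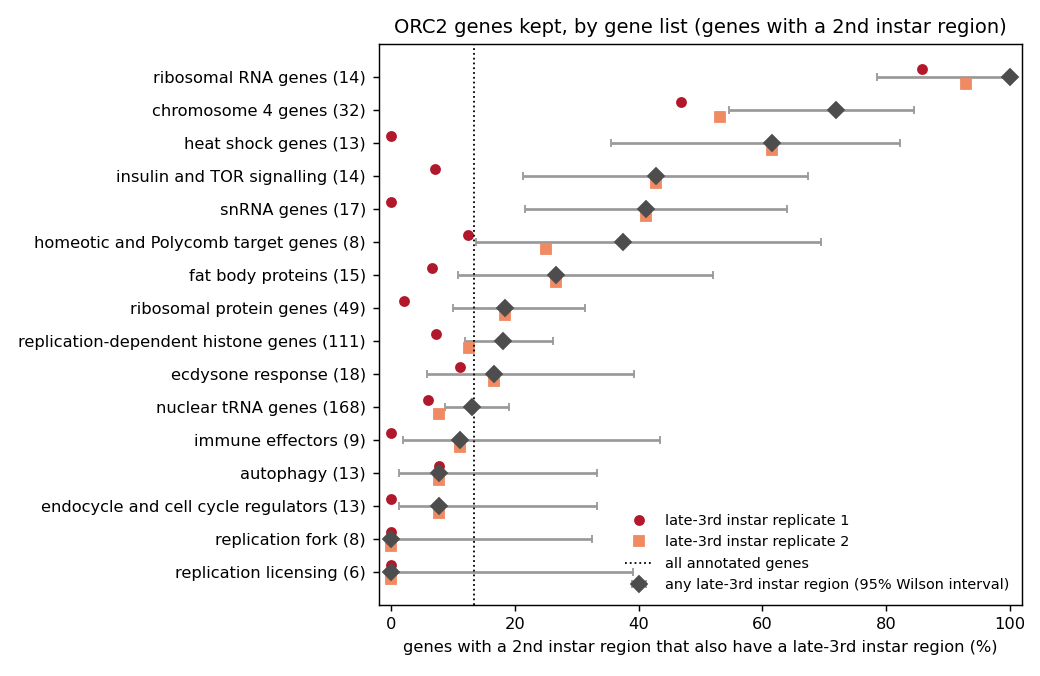
Share (%) of genes with a 2nd instar ORC2 region that also have a late-3rd instar region, for 16 gene lists with the number of such genes in brackets, by any late-3rd instar region (grey diamonds, with 95% Wilson intervals), late-3rd instar replicate 1 (red circles) and replicate 2 (orange squares). The dotted line marks the 13.4% of all genes, and heat shock genes reach 61.5% by replicate 2 and 0 by replicate 1.

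The 163 late-3rd instar regions with no 2nd instar region were mostly from a single replicate, 109 of replicate 1 alone and 46 of replicate 2 alone. The 8 that both replicates named lay at br (2), at spen, an RNA-binding repressor (2L:178417-179117), at Pzl, a Piezo-like channel (3R:2959131-2959770), and at 4 places in a gene-free stretch of 2L. That stretch, 2L:20176888-20198133, held 6 late-only regions in 21246 bp, with 4 late-3rd instar high-confidence peaks, the lowest IDR among them being 0.0104. The nearest annotated genes are CG10651, 41965 bp to the left, and lncRNA:CR40341, 49906 bp to the right. A 2nd instar region lies beyond its right end, outside the 1 kb limit. In all, 8 high-confidence late-3rd instar peaks had no 2nd instar region: these 4, those at br and Pzl, and 2 at the ribosomal DNA end of the X that did have a high-confidence 2nd instar peak. Pzl alone among the 6 outside the ribosomal DNA was listed at mid-3rd instar.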

How the data were processed

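ORC2 ChIP-seq peaks of the fat body were compared at late-3rd and 2nd instar, with mid-3rd instar as the stage between. The authors aligned reads with Bowtie2, called peaks per replicate against input with MACS2 (q-value 0.05) and deposited, for each stage, a list of merged regions that names the peaks of each replicate and a list of high-confidence peaks (IDR under 0.1). The deposited score column used here is the IDR, and the names of merged peaks were counted by replicate. Regions of a single peak are mostly of 1 fixed width, so widths need not be measured. The methods and labels name dm3. Release 6 gene ends were within 1 kb for 72.1% of the 2nd instar high-confidence peaks, and for 38.1% after a shift of 2000 bp. A shift of 100000 bp gave 28.6%. The late-3rd instar high-confidence peaks gave 28.3% unshifted and 23.3% and 25.0% after these shifts, so that list hardly bears on the build. From the 2nd instar list, positions are given in Release 6 at both stages. Genes come from its RefSeq table, which holds no strand. The labels and methods name different versions of the library kit. Peak counts per library are given in place of depth, which is not given in the sources used here.

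Regions within 1 kb were called shared, the distance of the study. Replicate values were compared by exact permutation. Shares carry 95% Wilson intervals, which treat regions as independent and cover counting error only. The labels call the replicates biological. Members and gene lists were chosen with earlier results of these data known. The loci named were high-confidence peaks kept at both stages, the 10 of lowest IDR that were lost before or after mid-3rd instar, late-only high-confidence peaks, and late-3rd instar regions of both replicates with the most peaks. Of each gene list up to 6 members with a late-3rd instar region were named, in list order, and up to 4 with a 2nd but no late-3rd instar region. The further names were chosen after their values were seen. GC content and motifs were not analysed here, and 2 of the genes that this rule names are not reported here. The overlap code was tested on simulated data. Alternatives were the overlap distance, the high-confidence lists, the chromosomes and genes used, and leaving out each replicate. The software was scipy 1.17.1, statsmodels 0.14.6, matplotlib 3.10.9, numpy 2.4.6 and pandas 2.3.3 under Python 3.11.15.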

Additional observations from a re-analysis of the deposited data

How the results depend on the processing

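The number of peaks was lower at late-3rd instar under every alternative run, with a difference between -3842 and -3396 when a replicate was left out. The share of 2nd instar regions kept was 11.2% for direct overlap, 20.9% within 5 kb, 11.7% on the 5 major arms, 2.12% with late-3rd instar regions of both replicates only, 3.64% between high-confidence lists, 3.40% between those with an IDR under 0.05, and 11.4% without chromosome 4 and the ribosomal DNA end (added after the data were seen). It ranged from 5.19% to 15.9% when a replicate was left out. The share of high-confidence 2nd instar peaks kept was 38.3% within 5 kb, 5.40% with late-3rd instar regions of both replicates only, and 3.64% and 3.40% between high-confidence lists at IDR under 0.1 and 0.05. It ranged from 7.78% to 28.5% without a late-3rd instar replicate. The high-confidence lists cannot be taken apart by 2nd instar replicate, so those alternatives gave no value. The share of late-3rd instar regions also listed at 2nd instar was 68.7% for direct overlap, 86.4% within 5 kb, 91.2% for regions of both replicates, 55.0% and 52.9% between high-confidence lists, and 64.4% to 88.5% without a replicate. The share of genes kept was 12.1% for direct overlap, 16.6% within 5 kb, 12.5% on the 5 major arms, 1.53% with late-3rd instar regions of both replicates, 2.07% and 1.73% between high-confidence lists, and 4.84% to 16.9% without a replicate. Measured from gene ends it was 11.5%, and for genes up to 5 kb it was 10.7%, both added after the data were seen. The excess on chromosome 4 was 3.42 percentage points between high-confidence lists at IDR under 0.05 and 5.62 to 11.9 points without a replicate. The deficit near gene ends was -43.8 points between high-confidence lists and -32.1 to -2.24 points without a replicate. No direction was reversed in any of these alternatives. No paired analysis was possible because peak lists give no value per region and library that a model with a replicate term could use. Depth is unknown, and 2 against 2 replicates give the exact permutation test no p under 0.333. The late-3rd instar lists hold 2 replicates that share at most 27.7% of their regions, which limits any statement about single genes kept.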

Other observations

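The mid-3rd instar lists gave a different picture of the heat shock genes. Of 19 matched heat shock genes, 13 had a region within 1 kb at 2nd instar, 19 at mid-3rd and 10 at late-3rd instar. Over all 17861 genes the counts were 5492 at 2nd, 3193 at mid-3rd and 853 at late-3rd instar. Hsp23 and Hsp27 had 1 peak in each mid-3rd instar replicate. The other list held whole at mid-3rd instar was that of the replication-dependent histone genes, at 111 of 111.

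A group of 4 late-only regions lay within 13759 bp at 2L:21114409-21128167, a stretch that overlaps 2 annotated genes. None of the 4 was named by both late-3rd instar replicates, and none held a high-confidence peak.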
